A study of Sus scrofa with 6 samples.

Results

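The enzymes that write, copy and erase cytosine methylation, and the factors that protect it, were followed in porcine oocytes matured in vitro. The set held 10 genes chosen by symbol: the methyltransferases DNMT1, DNMT3A and DNMT3B, the methyltransferase cofactor DNMT3L, the dioxygenases TET1, TET2 and TET3, the hemimethylated DNA reader UHRF1, and the protectors DPPA3 and ZFP57. All 10 were among the 29861 genes of the table. RNA was sequenced from 6 samples in 3 groups of 2, all of them oocytes from abattoir ovaries matured in culture. Control oocytes were kept at the usual maturation temperature, heat-stressed oocytes spent 24 h at a raised temperature, and NMN-supplemented oocytes received nicotinamide mononucleotide, a precursor of NAD+, during the same heat stress. Each sample was a pool of oocytes, the labels give the stage as GV, and the methods of the study give metaphase II. The concentration of NMN in the sequenced group was not given in the sources used here. Nothing says that the samples of a group came from separate collections of ovaries, so that P-values measure the spread between these samples, which may be technical.

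DNA methylation is laid down in the growing oocyte by DNMT3A, which DNMT3L assists, and it is copied after replication by DNMT1, which UHRF1 brings to hemimethylated sites. TET enzymes oxidize 5-methylcytosine, and TET3 is the member of this family that oocytes are known to store for the paternal genome of the zygote. DPPA3 guards the maternal genome against this oxidation and limits the action of UHRF1 in oocytes, while ZFP57 holds methylation at imprinted regions through its partner TRIM28. In a fully grown oocyte transcription is largely silent, and the level of such an mRNA reflects a maternal store.

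The values are FPKM, fragment numbers that the authors divided by transcript length and by the size of the library, so that levels of different genes can be set side by side within a sample. The number of reads behind a value is unknown. From the commonest ratio between libraries among genes under 0.1 FPKM, 1 fragment was estimated to be worth up to 1.57 times as much in one library as in another. The estimate was highest in heat-stressed replicate 1. It is rough, since the commonest ratio held only 125 of 3136 genes in that library and 177 of 3728 in control replicate 2. Mitochondrially encoded genes took 61.7% to 66.4% of the summed FPKM of control samples, 62.4% to 71.6% under heat stress alone and 74.2% to 74.7% with NMN. The 62.4% is that of heat-stressed replicate 1, which had the largest summed FPKM, 290136. A single pseudogene, LOC100513953, takes a large part of its nuclear sum and so lowers this share. The share without that pseudogene was not computed. Of 13 oocyte markers measured, 12 had a mean of at least 1 FPKM, and the sum of all 13 was 3535 and 3734 FPKM in control samples, 3488 and 3487 FPKM under heat stress alone, and 3334 and 3087 FPKM with NMN. The markers did not move together. BMP15 had the largest part of the sum, at 1606 and 1646 FPKM in control samples, 1861 and 1940 FPKM under heat stress alone, and 1820 and 1751 FPKM with NMN. GDF9 was 732 and 777 FPKM in control samples, 477 and 532 FPKM under heat stress alone, and 435 and 353 FPKM with NMN. WEE2 went the other way, with 157 and 134 FPKM, 201 and 198 FPKM, and 251 and 249 FPKM in the same groups. Of 17 cumulus markers 2 had a mean of at least 1 FPKM, KITLG and GREM1. INHA and AMH were listed at 0 throughout, and the aromatase CYP19A1 did not exceed 0.455 FPKM. The summed cumulus markers were 4.49 and 5.70 FPKM in control, 6.68 and 6.71 FPKM in heat-stressed, and 7.93 and 8.21 FPKM in NMN-supplemented samples. Of 4 blood markers none reached a mean of 1 FPKM, and their sum was at most 0.474 FPKM.

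The 10 genes lie on 8 chromosomes of the Sscrofa11.1 build. DNMT1 is on chromosome 2 from 68981564 to 69040364 on the minus strand, and UHRF1 is on the same chromosome and strand from 73898061 to 73937727. TET3 lies on the minus strand of chromosome 3 from 68918896 to 69020406, and DNMT3A on its plus strand from 113501972 to 113609148. DPPA3 is a short gene on chromosome 5 (62861492 to 62868131, minus strand) with a single annotated transcript of 1177 bases, against 12373 bases for that of TET3. DNMT3B is on chromosome 17 from 36345715 to 36386076, TET1 on chromosome 14 from 71675671 to 71812732, and TET2 on chromosome 8 from 116413253 to 116546976. DNMT3L lies on chromosome 13 from 207119025 to 207141990 and ZFP57 on chromosome 7 from 22607420 to 22612064. At their 5′ ends UHRF1 and TET3 overlap genes on the other strand, UHRF1 by 2190 bases with ARRDC5 and TET3 by 342 bases with LOC102163719, and the counting was not stated to use strand, so that reads from the overlaps cannot be told apart.

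The 250 bases before the annotated gene starts were read from the RefSeq Sscrofa11.1 genome for all 10 genes and for 19531 protein-coding genes in all. They are shown 5′ to 3′ on the gene's strand for DPPA3 and DNMT1, the most abundant of the 10, and for UHRF1 and TET3, the pair that differed between groups. Capitals mark CG dinucleotides, the sites that these enzymes act on.
DPPA3, chr5:62868132-62868381, minus strand: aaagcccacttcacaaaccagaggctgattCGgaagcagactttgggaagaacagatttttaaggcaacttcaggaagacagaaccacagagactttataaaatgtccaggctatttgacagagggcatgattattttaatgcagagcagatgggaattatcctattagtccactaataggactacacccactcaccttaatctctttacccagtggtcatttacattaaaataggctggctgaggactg
DNMT1, chr2:69040365-69040614, minus strand: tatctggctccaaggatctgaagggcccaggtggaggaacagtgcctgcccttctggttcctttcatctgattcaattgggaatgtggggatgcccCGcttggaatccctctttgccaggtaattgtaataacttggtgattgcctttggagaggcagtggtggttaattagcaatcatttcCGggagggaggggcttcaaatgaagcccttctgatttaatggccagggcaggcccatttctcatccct
UHRF1, chr2:73937728-73937977, minus strand: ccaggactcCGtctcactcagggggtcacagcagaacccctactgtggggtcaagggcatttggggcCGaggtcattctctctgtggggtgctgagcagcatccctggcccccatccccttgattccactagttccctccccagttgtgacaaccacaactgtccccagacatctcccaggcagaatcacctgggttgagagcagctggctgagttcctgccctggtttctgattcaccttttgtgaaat
TET3, chr3:69020407-69020656, minus strand: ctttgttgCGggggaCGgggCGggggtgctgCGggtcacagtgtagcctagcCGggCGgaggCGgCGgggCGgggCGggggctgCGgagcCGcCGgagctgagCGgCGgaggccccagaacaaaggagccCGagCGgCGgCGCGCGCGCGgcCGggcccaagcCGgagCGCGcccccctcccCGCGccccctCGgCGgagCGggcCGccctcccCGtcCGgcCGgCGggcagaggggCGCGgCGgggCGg
These windows differ most in their CG content. TET3 has 41 CG dinucleotides in 250 bases, a number that 3.05% of all windows reach, whereas DPPA3 has 1, DNMT1 2 and UHRF1 2. The median of all windows is 12, and of the 10 genes TET3 and DNMT3B, with 18, exceed it. Of the TET3 window 249 bases also lie in a coding exon of LOC102163719, and the UHRF1 window lies in an intron of ARRDC5. For heat shock elements, which are built from inverted GAA repeats, the palindromes GAANNTTC and TTCNNGAA were searched, each of which reads the same on both strands. GAANNTTC is in 0 of the 10 windows and in 5.45% of all windows. TTCNNGAA is in 2 of them, those of DPPA3 and ZFP57, and in 5.70% of all windows. DNMT1, DNMT3A and DNMT3B have 10, 12 and 11 annotated transcripts with several starts, and only the outermost start of a gene was used.

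**Figure D1:**
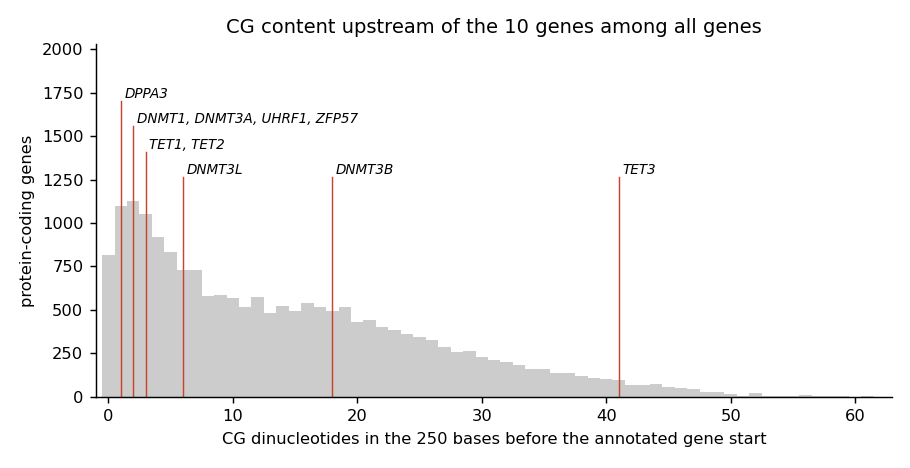
Number of protein-coding genes (vertical axis) by the count of CG dinucleotides in the 250 bases before their annotated start (horizontal axis), with red lines at the 10 genes. TET3 stands at 41, DNMT3B at 18 and the other 8 at 6 or fewer.

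The 10 mRNAs spanned a wide range of levels. DPPA3 was the most abundant, with a mean over the 6 samples of 107 FPKM, at place 83 of all 29861 genes. DNMT1 followed, listed between 73.4 and 124.7 FPKM in 5 of the 6 samples and at 0 in the other. UHRF1 had a mean of 6.92 FPKM, DNMT3B of 4.46 FPKM, TET3 of 2.09 FPKM and DNMT3A of 0.851 FPKM. The ranges of DPPA3 and DNMT1 overlapped, and DPPA3 exceeded DNMT1 in 4 of 6 samples, among them the sample that lists DNMT1 at 0. From UHRF1 down to TET2, by contrast, no neighbours in this order overlapped. TET2, with a mean of 0.107 FPKM, and TET1, with 0.0315 FPKM, overlapped in range, although TET2 was the higher in all 6 samples. DNMT3L and ZFP57 were listed at 0 in all 6 samples, so that 8 of the 10 genes had any value and 5 reached a mean of 1 FPKM, the minimum for testing. The same order of the 10 means was found when any single sample was left out.

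**Figure D2:**
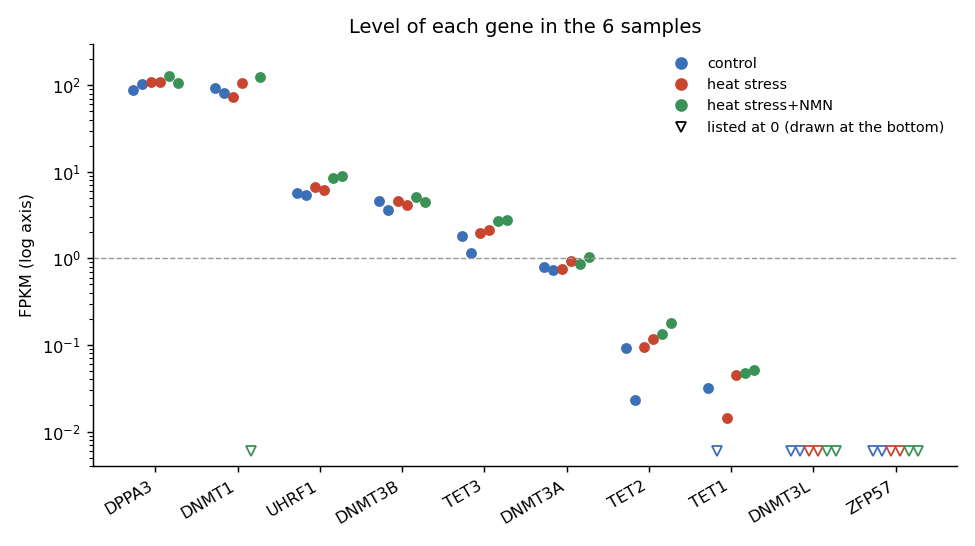
FPKM of the 10 genes in the 6 samples on a log axis, coloured by group, with the dashed line at 1 FPKM and open triangles for values listed at 0. DPPA3 and DNMT1 lie far above the other 8, apart from the open triangle of DNMT1 in NMN-supplemented replicate 1, and every value of TET2 is at or below 0.181 FPKM.

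Among the groups, heat-stressed and control oocytes did not differ past the threshold in any testable gene. UHRF1 and TET3 were higher in NMN-supplemented than in control oocytes, 2 of 5 genes, beside 25.6% of all genes tested. Against heat stress alone only UHRF1 passed the threshold, and it failed the adjustment. NMN-supplemented and control oocytes differed in both heat and NMN, and no group received NMN without heat. By mean FPKM, UHRF1 was 58.8% above control with heat and NMN, and TET3 was 87.0% above it. A gene was called at an unadjusted P under 0.05 in one limma model of the 3 groups, fitted to log2(FPKM + 1) of the 4713 genes with a mean of at least 1 FPKM, and adjusted P-values are Benjamini-Hochberg values over these genes. Fold changes on this scale are smaller than FPKM ratios for genes of low level. For a single gene with 2 samples against 2, an exact permutation test (two-sided) can reach no P below 0.333.

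UHRF1, which recognizes hemimethylated CG sites and recruits DNMT1, had 5.70 and 5.34 FPKM in control, 6.75 and 6.20 FPKM in heat-stressed, and 8.50 and 9.02 FPKM in NMN-supplemented oocytes. No pair of groups overlapped. Between NMN-supplemented and control oocytes it rose from 5.52 ± 0.254 to 8.76 ± 0.366 FPKM (SD, n = 2). On the log2 scale this was a difference of 0.58 (SE 0.11, limma, adjusted P = 0.0278). Against heat-stressed oocytes, at 6.47 ± 0.386 FPKM, it was called and rose by 0.39 on the log2 scale (SE 0.11), but this difference failed the adjustment (limma, adjusted P = 0.311). The smaller difference between heat-stressed and control oocytes, 0.20 (SE 0.11, adjusted P = 0.334), did not pass the threshold, its 95% interval ran from -0.08 to 0.47, and it was -0.11 when scaled to the sum of nuclear genes. ARRDC5, the gene that overlaps UHRF1, was listed at 0 to 0.0536 FPKM over the 6 samples.
Whether UHRF1 was called against heat-stressed oocytes changed with the samples in the fit. Leaving out a sample leaves a single one in its group, so that a call can be lost without a smaller difference. The call was lost without heat-stressed replicate 2 and without either NMN-supplemented replicate, while the log2 fold change was 0.33 to 0.44 over the 6 samples left out in turn.

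TET3, the dioxygenase that begins the oxidation of 5-methylcytosine in the zygote, showed the same order of groups. It had 1.80 and 1.15 FPKM in control, 1.95 and 2.12 FPKM in heat-stressed, and 2.73 and 2.79 FPKM in NMN-supplemented oocytes, again with no overlap between groups. The control samples were the furthest apart, and the NMN-supplemented samples nearly coincided. Between NMN-supplemented and control oocytes it rose from 1.48 ± 0.460 to 2.76 ± 0.0412 FPKM (SD, n = 2). On the log2 scale this was a difference of 0.62 (SE 0.16, limma, adjusted P = 0.0476). Neither of the other comparisons passed the threshold: the log2 fold change was 0.31 for heat stress against control (SE 0.16, adjusted P = 0.302, 95% interval -0.09 to 0.70) and 0.31 for NMN against heat stress (SE 0.16, adjusted P = 0.398, 95% interval -0.09 to 0.70). LOC102163719, which overlaps the 5′ end of TET3, was listed at 0.124 to 0.747 FPKM without the group order of TET3.
The adjusted P of both genes in this comparison lay close to the threshold. When each of the 6 samples was left out in turn, TET3 was called in all 6 fits, had an adjusted P of 0.0486 to 0.176, and was under 0.05 after adjustment in 1 of the 6 fits, that without control replicate 1. UHRF1 was also called in all 6, had an adjusted P of 0.0422 to 0.131, and was under 0.05 after adjustment in 2 of the 6 fits, those without a heat-stressed sample. The size of the TET3 difference moved between 0.42, without control replicate 2, and 0.81, without control replicate 1. Scaling each library to the same sum of nuclear genes, which a single pseudogene in heat-stressed replicate 1 dominates, ended the calls of both genes (adjusted P = 0.357 for TET3 and adjusted P = 0.488 for UHRF1) while their log2 fold changes were 0.65 and 0.61. Their SE became 0.36 and 0.41 under that scaling, in place of 0.16 and 0.11.

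TET2 and TET1, the other members of the TET family, were at far lower levels. TET2 had 0.0925 and 0.0231 FPKM in control, 0.0937 and 0.118 FPKM in heat-stressed, and 0.135 and 0.181 FPKM in NMN-supplemented oocytes. Its samples thus stood in the same group order as those of TET3, and within a sample TET3 was 15.4 to 49.7 times as abundant. Without a minimum level TET2 had a log2 fold change of 0.13 between NMN-supplemented and control oocytes (SE 0.05, limma, adjusted P = 0.264) and was called, and with a minimum of 0.1 FPKM it was not called (adjusted P = 0.224). TET1 had 0.0317 FPKM and a listed 0 in control, 0.0144 and 0.0448 FPKM in heat-stressed, and 0.0471 and 0.0510 FPKM in NMN-supplemented oocytes. The NMN-supplemented samples of TET1 lay above the other 4, and with no minimum level none of its comparisons was called (NMN against control 0.047 on the log2 scale, SE 0.023). The number of fragments behind such small values is unknown.

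**Figure D3:**
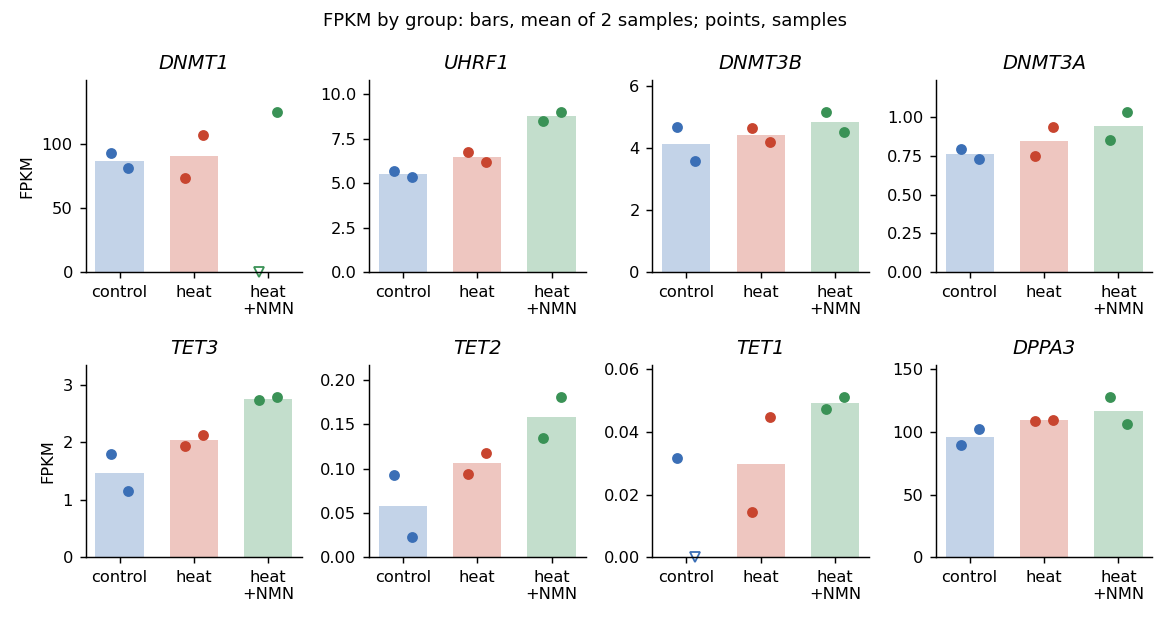
FPKM (vertical axes from 0, a scale for each gene) of the 8 genes with any value above 0, with points for samples and bars for the mean of 2 samples, left out where a sample is listed at 0 (open triangles). UHRF1 and TET3 stand in 3 separate groups, while the samples of DNMT3B overlap between all groups.

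DNMT1, the maintenance methyltransferase, had 92.7 and 80.6 FPKM in control and 73.4 and 106.7 FPKM in heat-stressed oocytes, and the groups overlapped. In NMN-supplemented oocytes it was listed at 0 in replicate 1 and at 124.7 FPKM in replicate 2, the highest value of the 6. Of all genes in the table, DNMT1 is the 1 gene listed at 0 in exactly 1 sample while above 10 FPKM in each of the others, and 17 genes show this pattern at a level of 1 FPKM. GAPDH, which every cell uses, is listed at 0 in heat-stressed replicate 1, but its other 5 values are only 0.208 to 0.315 FPKM, far below those of DNMT1. Whether such low values of GAPDH are failed estimates was not tested. Whether the 0 of DNMT1 is a measured absence or a failed estimate was not tested. With this 0 in the fit, the log2 fold change of DNMT1 between NMN-supplemented and heat-stressed oocytes was -3.00 (SE 2.10, limma, adjusted P = 0.491). With the value dropped as missing, which leaves a single NMN-supplemented sample for this gene, it was 0.49 (SE 0.27), and it was 0.52 against control (SE 0.27), neither of them called. The sign therefore turns with that single value. Between heat-stressed and control oocytes, to which that sample does not belong, the log2 fold change was 0.03, and dropping the value moved its SE from 2.10 to 0.22.
Over the 5 samples with a value, the highest DNMT1 level was 1.70 times the lowest. DNMT1 exceeded DNMT3B 15.8-fold to 27.7-fold and UHRF1 10.9-fold to 17.2-fold within these samples, and DPPA3 stood at 0.848 to 1.48 times DNMT1.

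DNMT3B and DNMT3A, the de novo methyltransferases, did not differ between groups past the threshold. DNMT3B had 4.66 and 3.58 FPKM in control, 4.64 and 4.19 FPKM in heat-stressed, and 5.16 and 4.51 FPKM in NMN-supplemented oocytes, with overlap between every pair of groups. Its log2 fold changes were 0.09 for heat stress against control (95% interval -0.29 to 0.46), 0.11 for NMN against heat stress (-0.27 to 0.48) and 0.19 for NMN against control (-0.18 to 0.57). DNMT3A had 0.794 and 0.734 FPKM in control, 0.748 and 0.939 FPKM in heat-stressed, and 0.853 and 1.04 FPKM in NMN-supplemented oocytes. It fell short of the minimum level, and with a minimum of 0.1 FPKM its log2 fold change between NMN-supplemented and control oocytes was 0.14 (SE 0.11, adjusted P = 0.454). In every sample DNMT3B had the higher FPKM of the pair, by 4.35-fold to 6.20-fold. The annotated transcripts of DNMT3A run from 2503 to 12588 bases, against 4001 to 4282 bases for DNMT3B. This ratio therefore depends on the transcript lengths that the authors divided by. DNMT3L, the catalytically inactive partner of the de novo enzymes, is listed at 0 in all 6 samples.

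DPPA3, also called STELLA, had 89.3 and 102.2 FPKM in control, 108.6 and 109.2 FPKM in heat-stressed, and 127.4 and 105.8 FPKM in NMN-supplemented oocytes. The heated samples all lay above both control samples, while the NMN-supplemented samples lay on either side of the heat-stressed ones. None of its differences passed the threshold: the log2 fold change was 0.19 for heat stress against control (95% interval -0.16 to 0.53, and -0.18 when scaled to the sum of nuclear genes), 0.09 for NMN against heat stress (-0.25 to 0.44) and 0.28 for NMN against control (-0.07 to 0.62, limma, adjusted P = 0.187). ZFP57, the zinc finger protein that protects imprints, is listed at 0 in all 6 samples. ZNF445, a zinc finger protein with a related role at imprints, was looked up after its values were seen. It had 14.7 and 11.4 FPKM in control, 16.0 and 19.4 FPKM in heat-stressed and 24.5 and 25.2 FPKM in NMN-supplemented oocytes. Between NMN-supplemented and control oocytes it rose by 0.89 on the log2 scale (SE 0.16, limma, adjusted P = 0.0263). Of all genes tested, 25.6% were called as higher there and 21.5% passed the adjustment. The P-value is that of a gene picked by its values.

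**Figure D4:**
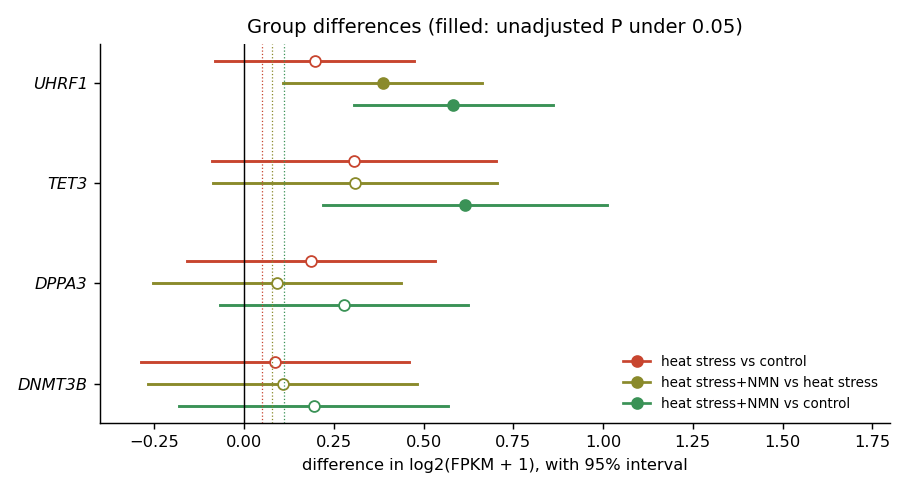
Differences in log2(FPKM + 1) between groups (horizontal axis) with 95% intervals for UHRF1, TET3, DPPA3 and DNMT3B, coloured by comparison, filled where the unadjusted P is under 0.05, with dotted lines at the median of all 4713 genes. The 3 filled points are UHRF1 in both comparisons of NMN-supplemented oocytes and TET3 against control.

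Counted over the genes that reached the minimum level, 0 of 5 were called between heat-stressed and control oocytes, against 12.7% of all genes called as higher and 10.1% as lower (22.8% in all). No gene tested had an adjusted P under 0.05 in limma in this comparison. With NMN against heat stress alone, 1 of 5 was called, UHRF1, against 7.15% of all genes called as higher and 6.45% as lower (13.6% in all). Again no gene tested passed the adjustment. With NMN against control, 2 of 5 were called, both higher, against 25.6% of all genes called as higher and 15.7% as lower (41.3% in all). An adjusted P under 0.05 was reached there by the same 2 genes and by 21.5% of all genes. That share rests on single libraries: the 1015 genes behind it became 0 without control replicate 2, 1 without either NMN-supplemented replicate and 373 without control replicate 1. The number of all genes called at an unadjusted P also moved by more than 1.5 times: from 1074 to 648 for heat stress against control, without control replicate 2, from 641 to 418, 327 and 383 for NMN against heat stress, without heat-stressed replicate 1 and NMN-supplemented replicates 1 and 2, and from 1948 to 1233 for NMN against control, without NMN-supplemented replicate 1. Each fit with a sample left out leaves a single one in its group, so that calls can be lost without smaller differences. With so few genes, the shares of all genes called do not set the 5 apart from the tested genes as a whole.
The groups could also be compared by overlap alone. Heat-stressed samples lay above both control samples in 3 of the 5 genes, UHRF1, TET3 and DPPA3, which holds for 31.6% of all genes tested. NMN-supplemented samples lay above both heat-stressed samples in 2 of the 5, UHRF1 and TET3, beside 35.9% of all genes. They lay above both control samples in 3 of the 5, UHRF1, TET3 and DPPA3, beside 43.5% of all genes, and below both in 0 of the 5, beside 26.4%. The median log2 fold change of the 5 genes was 0.19, 0.11 and 0.28 for heat stress against control, NMN against heat stress and NMN against control, beside 0.05, 0.08 and 0.11 for all genes tested. The comparisons share samples, and their values are not independent of each other.

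Ratios between members within a sample do not depend on how a library was scaled. The ratio of TET3 to DNMT3B was 0.386 and 0.321 in control samples, 0.420 and 0.507 in those under heat stress alone, and 0.529 and 0.618 in those with NMN, without overlap between groups. Against DPPA3 the ratio of TET3 was 0.0202 and 0.0113 in control samples, 0.0179 and 0.0194 in those under heat stress alone, and 0.0214 and 0.0263 in those with NMN, so that control and heat stress overlapped and NMN lay above both. The ratio of UHRF1 to DNMT3B was 1.22 and 1.49 in control samples, 1.45 and 1.48 in those under heat stress alone, and at least 1.65 in both with NMN, so that the NMN-supplemented samples lay above the other 4, which overlapped. Against DPPA3 the ratio of UHRF1 was 0.0522 to 0.0638 in those 4 samples and 0.0667 and 0.0852 with NMN. By contrast, the ratio of TET3 to UHRF1 was 0.316 and 0.216 in control samples, 0.289 and 0.343 in those under heat stress alone, and 0.321 and 0.309 in those with NMN, with overlap between all groups. The mitochondrial share and the summed cumulus markers given above were also highest in NMN-supplemented samples, and the summed oocyte markers were lowest there. Single oocyte markers differed in this, and WEE2 was highest in NMN-supplemented samples. Of the cumulus markers, KITLG was 2.25 and 2.02 FPKM in control samples, 2.89 in both under heat stress alone, and 3.34 and 3.44 FPKM with NMN. GREM1 was 2.48 and 1.73 FPKM in control samples, 3.27 and 2.87 FPKM under heat stress alone, and 3.58 and 3.55 FPKM with NMN. The other cumulus markers were at lower levels and did not all follow this order. CYP19A1 was 0.160 and 0.455 FPKM in control samples, 0.109 and 0.214 FPKM under heat stress alone, and 0.171 and 0.195 FPKM with NMN. FSHR was 0.106 and 0.0647 FPKM, 0.0918 and 0.105 FPKM, and 0.0774 and 0.109 FPKM in the same groups. Of the 17 cumulus markers 2, INHA and AMH, were listed at 0 in every sample. EEF1A1 and ACTB, which every cell uses, stood in the reverse order of the groups. EEF1A1 was 106.6 and 106.2 FPKM in control samples, 74.86 and 70.12 FPKM under heat stress alone, and 52.94 and 56.98 FPKM with NMN. ACTB was 2.56 and 2.81 FPKM, 1.101 and 0.983 FPKM, and 0.575 and 0.582 FPKM in the same groups. GAPDH, at 0.315 FPKM or less in every sample, overlapped between control and heat stress. The part of all these measures in the UHRF1 and TET3 values was not tested. In these pooled oocytes a change in the RNA of a cell and a change in the number of cells that hold it cannot be told apart.

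For each of the 5 genes, the 2 others with the most similar profile were found by the root mean square difference of log2(FPKM + 1), centred on its mean, over the 6 samples among 4712 genes. UBE2H (0.0210) and SLC35D1 (0.0227) were nearest to TET3, and UBE2H had 9.46 and 6.83 FPKM in control, 9.64 and 10.3 FPKM in heat-stressed and 12.5 and 13.2 FPKM in NMN-supplemented oocytes. SOS2 (0.0408) and LOC100157002 (0.0531) were nearest to UHRF1, NGLY1 (0.0270) and RBL2 (0.0313) to DPPA3, and ARID3B (0.0413) and GNA12 (0.0451) to DNMT3B. The nearest to DNMT1, LOC110261483 (1.75) and LOC100152976 (1.77), were far from it and share its listed 0 in NMN-supplemented replicate 1.

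Genes that work with the 10 were taken from 5 lists written by symbol. Of the cofactors of the methyltransferases, 17 of 19 were in the table and 7 were tested. None was called between heat-stressed and control oocytes, beside 22.8% of all genes. With NMN 1 was higher than with heat stress alone, beside 7.15% of all genes. In NMN-supplemented against control oocytes 5 were higher and 0 lower (median log2 fold change 0.34), 1 of them after adjustment. Of all genes, 25.6% were called there as higher, 41.3% in all and 21.5% after adjustment. KDM1B, a histone H3K4 demethylase that oocytes need to establish imprints, rose from 6.37 and 7.17 FPKM in control to 9.70 and 11.3 FPKM in NMN-supplemented oocytes, with 8.57 and 8.70 FPKM in heat-stressed ones (log2 fold change 0.57, SE 0.13, limma, adjusted P = 0.0355). CDCA7, which activates the remodeller HELLS for maintenance methylation, had 3.38 and 3.28 FPKM in control and 3.47 and 3.38 FPKM in heat-stressed oocytes. With NMN it had 4.44 and 4.78 FPKM, and it was called against both other groups (adjusted P = 0.0600 against control and adjusted P = 0.340 against heat stress).
Readers of methylation and genes of base excision repair gave 9 tested genes of 28, with 0, 0 and 1 called in the 3 comparisons, beside 22.8%, 13.6% and 41.3% of all genes. The 1 was MBD4, a glycosylase for deaminated methylcytosine, higher with NMN than in control oocytes by 0.46 on the log2 scale (adjusted P = 0.119).
Of the imprint protectors and maternal factors, 12 of 18 were tested. Between NMN-supplemented and control oocytes 2 were higher and 6 lower (median -0.45), 7 of the 8 after adjustment, beside 25.6%, 15.7% and 21.5% of all genes, and between heat-stressed and control oocytes 2 were higher and 4 lower (median -0.27), beside 12.7% and 10.1% of all genes. With NMN against heat stress alone 1 was higher and 4 were lower (median -0.09), beside 7.15% and 6.45% of all genes. These lower genes are maternal factors, and ZAR1 and NLRP5 among them are also oocyte markers of the list above. ZAR1, a protein of maternal mRNA storage, fell by 2.24 on the log2 scale between NMN-supplemented and control oocytes, from 17.3 and 23.8 FPKM to 4.30 and 2.84 FPKM (SE 0.23, adjusted P = 0.0202), and PADI6, a protein of the oocyte lattices, fell by 1.76 (SE 0.24, adjusted P = 0.0210). ARID4A, which acts at imprinted regions with the retinoblastoma protein, rose from 4.60 and 4.38 FPKM in control to 6.60 and 6.83 FPKM in heat-stressed oocytes (0.49, adjusted P = 0.122), while TLE6, of the subcortical maternal complex, fell by 0.59 (adjusted P = 0.127). NLRP2 fell by 0.71 between NMN-supplemented and heat-stressed oocytes (adjusted P = 0.222).
Of 28 genes that supply methyl groups or the cosubstrate of the TET enzymes, 7 were tested, with 1 higher and 1 lower in heat-stressed than in control oocytes, 2 higher with NMN than with heat stress alone, and 2 higher in NMN-supplemented than in control oocytes, beside 22.8%, 13.6% and 41.3% of all genes called in either direction. SHMT1, which loads folate with the carbon of serine, had 4.75 and 4.22 FPKM in control, 3.40 and 3.21 FPKM in heat-stressed and 5.31 and 5.44 FPKM in NMN-supplemented oocytes. It fell by 0.35 with heat stress (adjusted P = 0.179) and rose by 0.57 with NMN against heat stress alone (adjusted P = 0.222). MAT2B, the regulatory subunit of the S-adenosylmethionine synthetase, rose to 2.58 and 2.52 FPKM in heat-stressed oocytes, 0.56 above control on the log2 scale (adjusted P = 0.118), and was 0.34 above control with NMN (adjusted P = 0.0833). IDH3A, of the mitochondrial isocitrate dehydrogenase, was higher with NMN than with heat stress alone by 0.37 (adjusted P = 0.340), and TYMS, the thymidylate synthase, was higher than in control by 0.50 (adjusted P = 0.0631).
Among chromatin partners 9 of 23 were tested. In heat-stressed against control oocytes 3 were higher and 1 lower, beside 12.7% and 10.1% of all genes. Between NMN-supplemented and heat-stressed oocytes 0 were called, beside 13.6% of all genes. In NMN-supplemented against control oocytes 4 were higher and 1 lower, 3 of the 5 after adjustment. In the last of these, 25.6% of all genes were called as higher, 15.7% as lower and 21.5% after adjustment. MORC3, a chromatin ATPase, had 4.86 and 4.81 FPKM in control, 7.24 and 7.30 FPKM in heat-stressed and 9.43 and 8.51 FPKM in NMN-supplemented oocytes (0.77 against control, SE 0.11, adjusted P = 0.0210). SETDB1, the H3K9 methyltransferase that TRIM28 recruits, fell from 2.90 and 3.04 FPKM in control to 1.75 and 1.19 FPKM in heat-stressed oocytes (by 0.69, adjusted P = 0.129). It was 1.05 and 1.45 FPKM with NMN, lower than in control by 0.83 on the log2 scale (SE 0.17, limma, adjusted P = 0.0294).

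**Figure D5:**
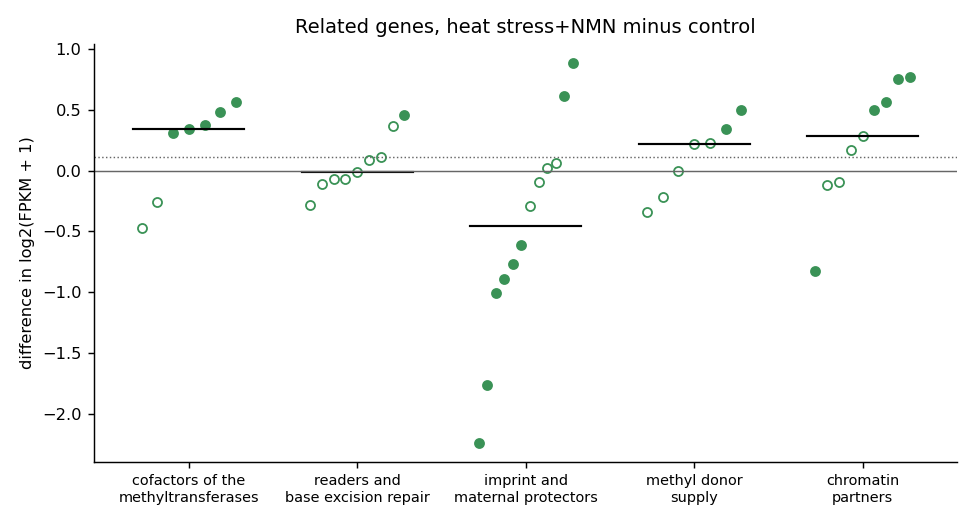
Differences in log2(FPKM + 1) between NMN-supplemented and control oocytes (vertical axis) for the tested genes of the 5 related lists, filled where the unadjusted P is under 0.05, with a bar at each list's median and a dotted line at the median of all 4713 genes (0.11). The cofactors have 5 filled points above 0 and none below, while the imprint and maternal protectors have 6 below and 2 above.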

How the data were processed

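The RNA of pooled oocytes was sequenced in 3 groups, with 2 samples each assigned from their treatment labels. According to the methods, reads were trimmed with cutadapt and aligned to susScr11 with tophat2, and the submitters' processing notes name Cufflinks 2.2.1, Cuffnorm and Cuffdiff. The authors deposited FPKM values of 29861 genes in 6 samples, which were used here. Their own fold changes, P-values and q-values for the 3 comparisons, and their lists of changed genes, were not used. Read counts were not used here, so that the depth per sample is unknown.

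FPKM were transformed as log2(FPKM + 1), genes with a mean of at least 1 FPKM were kept, and limma 3.58.1 in R 4.3.3 fitted the 3 groups in one model, with a trend of the variance and Benjamini-Hochberg adjustment over 4713 genes. The fit was tested on simulated data. Alternatives changed the pseudocount, minimum level, scaling, samples, moderation and pairing. The 10 genes, the related lists and the tests were chosen with earlier results of these data known. Named genes were the 10, the 2 with the smallest P under 0.05 in each list and comparison, and the 2 nearest profiles of each tested gene. ZNF445 was chosen after its values were seen. Positions are those of the RefSeq annotation of Sscrofa11.1. Each of the 10 genes lies within its locus of the table and 8 share both ends with it, while the loci of TET3 and UHRF1 run further, over LOC102163719 and ARRDC5. Python 3.11.15, pandas 2.3.3 and matplotlib 3.10.9 were used for the other steps.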

Additional observations from a re-analysis of the deposited data

How the results depend on the processing

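Each difference of the 5 tested genes was recomputed under up to 18 alternatives, 264 values in all, of which 236 kept their direction and their side of an unadjusted P of 0.05. Scaling to the same sum of nuclear genes gave the most exceptions: LOC100513953, a pseudogene listed above 0 only in heat-stressed replicate 1, then pulls down that sample, and the median of all genes between heat-stressed and control oocytes moved from 0.05 to -0.22, with 0.35 and 0.13 in the comparisons of NMN with heat stress and with control. Under it the heat stress differences were -0.33 for DNMT1, -0.21 for DNMT3B, -0.11 for UHRF1 and -0.18 for DPPA3, TET3 and UHRF1 lost their calls against control and UHRF1 that against heat stress, and DNMT1, whose difference rests on its listed 0, became the 1 gene called against control (-3.02) and the 1 called against heat stress (-2.69, adjusted P = 1.3e-06). This scaling also changed how limma estimated the spread, with a median of 14139 total degrees of freedom against 5.56 in the main fit. Each gene's spread was then taken almost wholly from all genes. The SE of DNMT1 became 0.45 in place of 2.10, and that of UHRF1 0.41 in place of 0.11. Its P-values are therefore not comparable with those of the main fit. Without that pseudogene in the sum, an alternative chosen after seeing the data, TET3 and UHRF1 were called against control (adjusted P = 0.0748 and adjusted P = 0.0467), and DNMT1 differed by -0.0051 with heat stress. Between heat-stressed and control oocytes DNMT1 was at -0.028 after quantile normalization and ran from -0.23, without heat-stressed replicate 2, to 0.30 over the samples left out, with -0.067 without control replicate 2. DNMT3B ran from -0.067, also without control replicate 2, to 0.24. With DNMT1 of NMN-supplemented replicate 1 taken as missing, also chosen after seeing the data, or without that sample, DNMT1 was 0.49 against heat-stressed and 0.52 against control oocytes, and without that sample DPPA3 was -0.041 against heat-stressed oocytes, the lowest of a range that reached 0.22. Without NMN-supplemented replicate 2, DNMT1 rested on the listed 0 and was -6.48 and -6.45. The number of genes called between NMN-supplemented and heat-stressed oocytes was 2 with only the compared groups in the fit, TET3 being added, and 0 to 2 over the samples left out. Between heat-stressed and control oocytes it was 0 to 1 over the samples left out, TET3 being called without control replicate 1. Between NMN-supplemented and control oocytes it was 1 with a minimum mean of 5 FPKM, which TET3 does not reach. Over all alternatives the adjusted P against control was 0.0470 to 0.357 for TET3 and 0.0208 to 0.488 for UHRF1. A lone sample of a group was assumed to vary like the other groups.

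With the replicate number of the labels as a block, 0, 1 and 2 genes were called in the 3 comparisons, the same numbers as without it, and the adjusted P against control was 0.0770 for TET3 and 0.0547 for UHRF1. The deviations from the group mean of samples with the same number correlated at -0.0320, -0.0139 and 0.00805 across genes. No deviation common to samples of the same number was thus seen across genes. Such correlations cannot show whether those samples were collected or processed together, and the labels do not say.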
